A study of Homo sapiens with 6 samples.

Results

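The 3 D-type cyclins (CCND1, CCND2 and CCND3) and the 7 inhibitors of cyclin-dependent kinases (CDKN1A, CDKN1B, CDKN1C, CDKN2A, CDKN2B, CDKN2C and CDKN2D) were examined in SKOV3 floating spheres and in cells differentiated from such spheres. They were chosen by gene name, and all 10 were found among the 58735 entries of the expression table. SKOV3 is an established human ovarian cancer cell line. Floating spheres (3 RNA-seq libraries) were grown in ultra-low-attachment plates in serum-free DMEM/F12 with B27. The study's methods for sphere formation also list EGF, basic FGF and insulin in that medium. Sphere-differentiated cells (3 libraries) came from collected spheres that were plated again in DMEM with fetal bovine serum, where they attached and spread. The groups therefore differ in serum, medium, added growth factors and attachment at the same time, and the parts played by each cannot be told apart. Neither group carried an added transgene or a drug treatment per the labels, and nothing in the labels says whether the libraries of a group came from separate cultures, so p-values measure the spread between these libraries, which may be technical.

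D-type cyclins are the growth factor-responsive subunits that bind CDK4 and CDK6, and the active kinases phosphorylate the retinoblastoma protein RB and its relatives, which releases E2F factors to transcribe the genes of DNA synthesis. The INK4 inhibitors (p16, p15, p18 and p19, from CDKN2A, CDKN2B, CDKN2C and CDKN2D) bind CDK4 and CDK6 directly and keep D-type cyclins off. The CIP/KIP inhibitors (p21, p27 and p57, from CDKN1A, CDKN1B and CDKN1C) bind cyclin-CDK complexes more broadly and block CDK2, while p21 and p27 can also help D-type cyclins assemble with their kinases. CDKN2A additionally encodes ARF, a protein in another reading frame that restrains MDM2.

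Transcript levels are given in FPKM (fragments scaled by exon length and by a factor for each library), a unit that corrects for gene length and library depth. Median-of-ratios factors of the deposited values were 1.009 in every library. That factor was therefore not plain library size, and the values were already level between libraries by that measure. Fold changes are floating spheres over sphere-differentiated cells on the log2(FPKM + 0.5) scale, from a limma fit of the 15719 genes that averaged at least 0.5 FPKM over the 6 libraries, and a gene was called at a Benjamini-Hochberg adjusted p under 0.05. Each library held between 14725462 and 16376331 fragments assigned to genes. Libraries correlated at 0.928 to 0.952 among floating spheres and 0.966 to 0.977 among sphere-differentiated cells, against 0.841 to 0.906 between the groups. In bulk RNA, fewer cells expressing a gene and less RNA of that gene per cell cannot be told apart. The exon length is that of all annotated exons of a gene merged, which can exceed the length of the transcripts made. Levels, sums, shares and ranks therefore compare different genes per length only.

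Of the 10 genes, 9 passed the expression filter, and CCND2 did not. Among the 9, CDKN1C, CDKN2A and CDKN2C were higher in floating spheres and CCND1 and CDKN2B were lower, while CCND3, CDKN1A, CDKN1B and CDKN2D were not called. Across all genes tested 33.6% were called, 15.8% as higher and 17.8% as lower in floating spheres, beside 5 of 9 here (55.6%). Groups did not overlap for the same 5 genes, and for 51.6% of all genes tested. By a looser rule, an unadjusted p below 0.05 together with a log2 difference exceeding 0.5 in size, these 5 genes passed, as did 39.4% of all genes tested. With floating sphere replicate 1 left out, 5 genes were called as higher, CDKN1A and CDKN2D being added, and CDKN2B was not called. The median log2 fold change was 0.72 over the 9 genes and 0.00 over all genes tested.

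**Figure D1:**
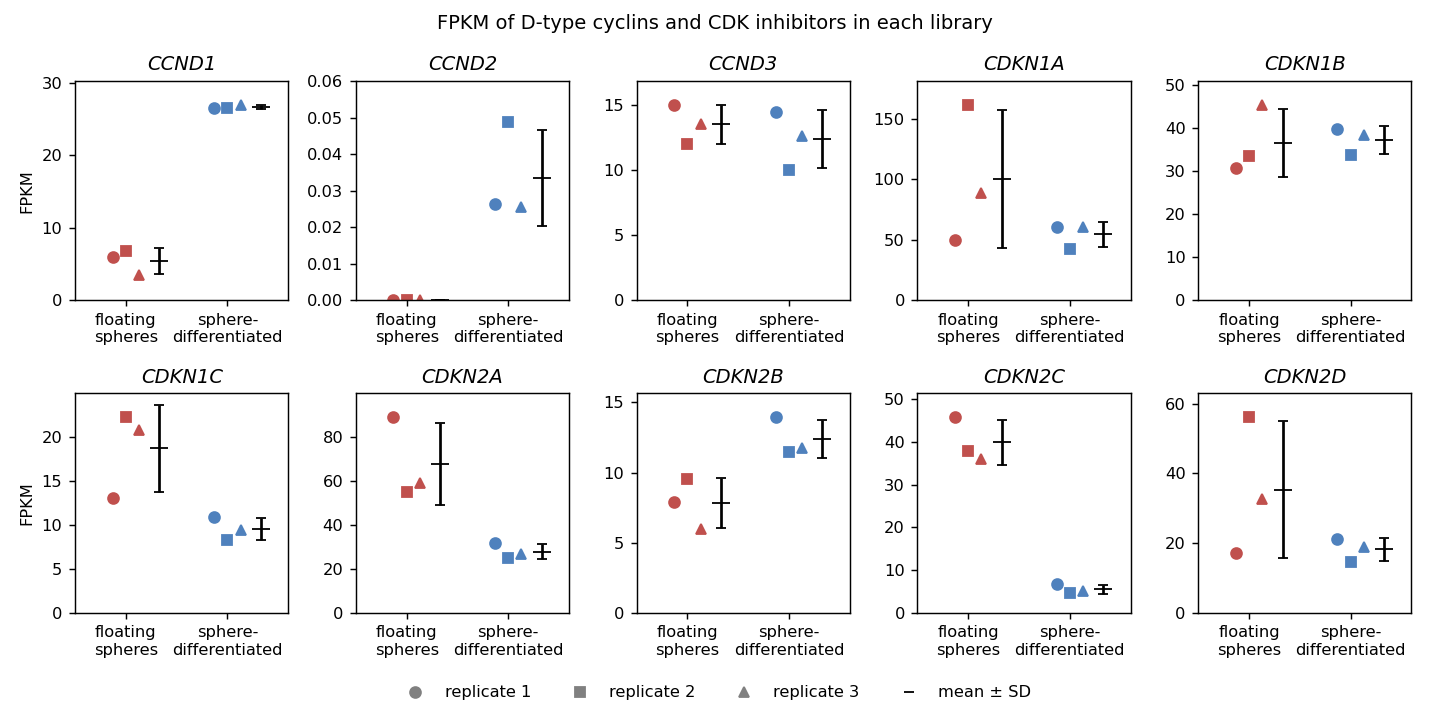
FPKM of each of the 10 genes by library (points, with a separate linear axis from 0 for each gene), with floating spheres on the left and sphere-differentiated cells on the right of each panel and the mean ± SD beside them. CCND1 lay at 3.47 to 6.82 FPKM in floating spheres and at 26.5 to 27.0 FPKM in sphere-differentiated cells, while CDKN2C lay at 35.9 to 45.9 FPKM in floating spheres and at 4.62 to 6.68 FPKM in sphere-differentiated cells.

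Promoter sequence is shown for the INK4 genes that were called, because CDKN2A and CDKN2B are neighbours on chromosome 9 that were called in opposite directions and CDKN2C changed most of the 9 genes tested. Each line holds the 250 bases before a RefSeq transcription start on GRCh38.p14, 5′ to 3′ on the gene's own strand. Capitals mark the E2F site TTCCCGC and the GC box GGGCGG (an Sp1-type element) on either strand, and GC boxes may overlap one another.
CDKN2C, chr1:50968456-50968705 (+): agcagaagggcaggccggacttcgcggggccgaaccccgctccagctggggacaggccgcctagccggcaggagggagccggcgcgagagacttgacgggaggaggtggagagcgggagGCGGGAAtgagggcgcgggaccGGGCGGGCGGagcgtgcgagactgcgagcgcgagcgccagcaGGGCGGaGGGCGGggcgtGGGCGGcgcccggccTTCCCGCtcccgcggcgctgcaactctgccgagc
CDKN2A, p16 start, chr9:21974858-21975107 (-): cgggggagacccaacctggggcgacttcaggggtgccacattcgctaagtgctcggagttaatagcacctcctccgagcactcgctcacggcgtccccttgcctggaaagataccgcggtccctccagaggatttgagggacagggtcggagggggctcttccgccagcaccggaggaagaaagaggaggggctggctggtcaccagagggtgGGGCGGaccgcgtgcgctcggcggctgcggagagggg
CDKN2A, ARF start, chr9:21995325-21995574 (-): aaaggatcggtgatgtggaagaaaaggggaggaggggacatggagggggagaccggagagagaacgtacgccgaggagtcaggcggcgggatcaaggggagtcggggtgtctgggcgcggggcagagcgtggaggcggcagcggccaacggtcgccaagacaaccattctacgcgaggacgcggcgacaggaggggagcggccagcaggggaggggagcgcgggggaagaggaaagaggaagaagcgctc
CDKN2B, chr9:22009306-22009555 (-): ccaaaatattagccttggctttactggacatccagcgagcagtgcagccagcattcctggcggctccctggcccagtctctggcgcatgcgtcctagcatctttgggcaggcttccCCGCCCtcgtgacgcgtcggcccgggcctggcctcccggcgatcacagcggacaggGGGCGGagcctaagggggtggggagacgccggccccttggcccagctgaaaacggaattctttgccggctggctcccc

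The CDKN2C window held 2 E2F sites, one on each strand, and 5 GC boxes. The p16 window held 1 GC box, the ARF window none, and the CDKN2B window 2, and none of these 3 windows held the E2F letters. Over the 35116 windows of this length in the RefSeq table, the E2F letters occurred in 5.52% and the GC box in 42.6%. Of the 10 genes, 7 had entries in that table, with 12 windows in all, and the E2F letters were found in 1 of them. A palindromic E-box (CACGTG) occurred in 6.34% of all windows and a partial cAMP response element (TGACGT) in 7.1%, and the other pair of CDKN2C windows each held 1 of both. CCND1, CCND2 and CDKN1C were not in the table. These are matches of letters, and binding was not measured.

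CCND1 encodes cyclin D1, the D-type cyclin most often amplified or overexpressed in carcinomas (chr11:69641087-69654474 on the plus strand, hg38, here and for all gene positions). It measured 5.99, 6.82 and 3.47 FPKM in floating spheres, against 26.5, 26.5 and 27.0 FPKM in sphere-differentiated cells. Every floating sphere library lay below every sphere-differentiated library, and the sphere-differentiated libraries spread by under 1 FPKM. This gave a log2 fold change of -2.24 ± 0.23 (SE, 95% interval -2.78 to -1.71, limma, adjusted p = 0.00108, n = 3 each). Of its exon length, 10.3% is shared with LTO1 on the opposite strand, and the strand setting of the counting is not given in the sources used here.

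CCND3 encodes cyclin D3 (chr6:41934933-42050357, minus strand), which pairs with the same kinases. It measured 15.0, 12.0 and 13.5 FPKM in floating spheres, against 14.5, 10.0 and 12.7 FPKM in sphere-differentiated cells. The groups overlapped, and the difference was within the spread of the libraries (log2 fold change 0.13 ± 0.17, 95% interval -0.27 to 0.53, limma, adjusted p = 0.585).

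CCND2 encodes cyclin D2 (chr12:4273772-4305350, plus strand) and was near the limit of detection in this line. It was listed at 0 in all 3 floating sphere libraries, and at 0.0265, 0.0487 and 0.0255 FPKM in sphere-differentiated cells, which corresponds to 3, 5 and 3 fragments. Its mean lay under the expression filter, so no fold change is given. A count of 0 allows up to 3 fragments in a library, or 0.0247 to 0.0257 FPKM in floating spheres. That limit covers counting error only.

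Together the D-type cyclins summed to 21.04, 18.8 and 17.0 FPKM in floating spheres, against 41.0, 36.6 and 39.7 FPKM in sphere-differentiated cells. By FPKM, CCND3 supplied most of the D-type cyclin transcript in floating spheres and CCND1 most of it in sphere-differentiated cells. These values rest on merged exon lengths of 4830 bases for CCND1 and 5802 bases for CCND3. Shares counted in transcript molecules may differ and were not measured. The CCND1 share was 28.4 ± 7.88% in floating spheres, compared with 68.4 ± 3.93% in sphere-differentiated cells (SD, n = 3 each), and that of CCND3 was 71.6 ± 7.88% in floating spheres, compared with 31.6 ± 3.96% in sphere-differentiated cells. The shares did not overlap between the groups for either gene, and they rest on the same values as the fold changes above.

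**Figure D2:**
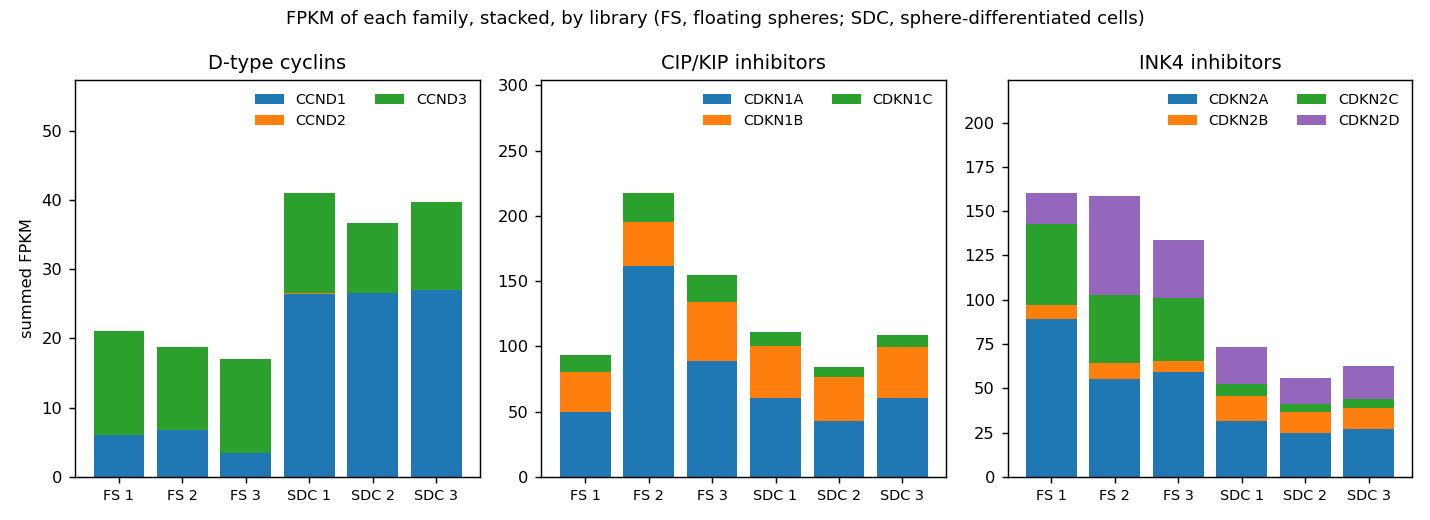
Summed FPKM of the D-type cyclins, the CIP/KIP inhibitors and the INK4 inhibitors in each library, stacked by gene, with the 3 floating sphere libraries (FS) to the left of the 3 sphere-differentiated libraries (SDC). INK4 sums were 133.7 to 160 FPKM in floating spheres and 55.7 to 73.5 FPKM in sphere-differentiated cells, and D-type cyclin sums were 17.0 to 21.04 FPKM in floating spheres and 36.6 to 41.0 FPKM in sphere-differentiated cells.

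CDKN2C, which encodes the INK4 inhibitor p18 (chr1:50960745-50974633, plus strand), showed the largest change of the 9 genes tested. It measured 45.9, 37.9 and 35.9 FPKM in floating spheres, against 6.68, 4.62 and 5.15 FPKM in sphere-differentiated cells. The groups lay far apart compared with the spread inside either one. The log2 fold change was 2.76 ± 0.17 (95% interval 2.36 to 3.17, limma, adjusted p = 0.000323), a 6.78-fold difference on the FPKM + 0.5 scale. No other annotated gene shares its exon bases.

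CDKN2A encodes p16 and ARF (chr9:21967753-21995301, minus strand). It measured 89.3, 55.0 and 59.2 FPKM in floating spheres, against 31.7, 24.9 and 26.8 FPKM in sphere-differentiated cells. All floating sphere libraries were higher, and floating sphere replicate 1 was the highest of the 6. Its log2 fold change was 1.24 ± 0.21 (95% interval 0.75 to 1.73, limma, adjusted p = 0.00527). The table has 1 row for the gene, so transcripts from the p16 and ARF starts were not separated. Of the exon length, 7.88% is shared with the antisense transcript CDKN2B-AS1, which was itself low, at 0.141, 0.443 and 0.301 FPKM in floating spheres and 0.0630, 0.113 and 0.0757 FPKM in sphere-differentiated cells.

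CDKN2B, which encodes p15 and is known as a target of TGF-beta signalling, lies next to CDKN2A (chr9:22002903-22009363, minus strand). It measured 7.87, 9.56 and 6.00 FPKM in floating spheres, against 14.0, 11.5 and 11.8 FPKM in sphere-differentiated cells. The groups did not overlap, although floating sphere replicate 2 came within 2 FPKM of the lowest sphere-differentiated library. The difference was a log2 fold change of -0.65 ± 0.19 (95% interval -1.09 to -0.22, limma, adjusted p = 0.0319). Its direction was kept in each of the 17 alternative analyses, some of which cannot change it, but the call in 9 of them. Leaving out any library other than floating sphere replicate 2 lost the call, at adjusted p of 0.0546 to 0.107.

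CDKN2D encodes p19 (chr19:10566462-10569059, minus strand). It measured 17.1, 56.2 and 32.6 FPKM in floating spheres, against 21.1, 14.7 and 18.8 FPKM in sphere-differentiated cells. Floating sphere replicate 2 stood highest and replicate 1 fell inside the range of sphere-differentiated cells, so the groups overlapped. The log2 fold change of 0.80 ± 0.39 did not pass the test (95% interval -0.12 to 1.71, limma, adjusted p = 0.152).

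The INK4 genes summed to 160, 159 and 133.7 FPKM in floating spheres, against 73.5, 55.7 and 62.5 FPKM in sphere-differentiated cells. CDKN2A held a like share of that sum in each group, 44.9 ± 10.6% in floating spheres, compared with 43.6 ± 0.980% in sphere-differentiated cells. CDKN2C held 26.5 ± 2.40% in floating spheres, compared with 8.54 ± 0.478% in sphere-differentiated cells, and CDKN2B held 5.15 ± 0.796% in floating spheres, compared with 19.5 ± 0.994% in sphere-differentiated cells. The shares of CDKN2C and CDKN2B did not overlap between the groups, while those of CDKN2A and CDKN2D did.

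CDKN1C, which encodes p57, is an imprinted gene expressed from the maternal allele in normal human tissue (chr11:2883213-2885773, minus strand). It measured 13.0, 22.2 and 20.8 FPKM in floating spheres, against 10.9, 8.27 and 9.42 FPKM in sphere-differentiated cells. It was the CIP/KIP gene that was called, with floating sphere replicate 1 only slightly above the highest sphere-differentiated library. The log2 fold change was 0.91 ± 0.22 (95% interval 0.39 to 1.43, limma, adjusted p = 0.0186). The call was lost without floating sphere replicate 3 (log2 fold change 0.82, adjusted p = 0.0564), sphere-differentiated replicate 2 (0.82, adjusted p = 0.0759) or sphere-differentiated replicate 3 (0.90, adjusted p = 0.0651).

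CDKN1A encodes p21, an inhibitor induced after DNA damage (chr6:36676460-36687339, plus strand). It had the highest mean level of the 10 genes, above that of 97.1% of all genes tested. It measured 49.4, 162 and 88.5 FPKM in floating spheres, against 60.6, 42.5 and 60.6 FPKM in sphere-differentiated cells. Floating sphere replicate 2 was highest and replicate 1 lay inside the sphere-differentiated range. The log2 fold change of 0.72 ± 0.40 did not pass the test (95% interval -0.21 to 1.65, limma, adjusted p = 0.197). Without floating sphere replicate 1 it passed, at 1.14 (adjusted p = 0.0284), and without replicate 2 it was 0.29 (adjusted p = 0.465).

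For CDKN2D the same libraries mattered, with a log2 fold change of 1.23 without floating sphere replicate 1 (limma, adjusted p = 0.0169) and 0.39 without replicate 2 (adjusted p = 0.346). Floating sphere replicate 2 was also the highest for CDKN1C. In that library MYC, a known repressor of CDKN1A and CDKN2B transcription, was the lowest of all 6, with 27.1, 12.3 and 32.4 FPKM in floating spheres and 41.2, 37.3 and 33.8 FPKM in sphere-differentiated cells. MYC was not alone in this. The same library was also the highest of the 6 for SMAD3 (23.6 FPKM) and EZH2 (38.4 FPKM) and the lowest for KRT7 (66.7 FPKM). Whether that library's difference had a part in the CDKN1A and CDKN2D values was not tested.

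CDKN1B encodes p27, whose amount is set largely by protein turnover (chr12:12715058-12722371, plus strand). It measured 30.6, 33.6 and 45.5 FPKM in floating spheres, against 39.7, 33.7 and 38.5 FPKM in sphere-differentiated cells. The groups overlapped, and the log2 fold change was -0.04 ± 0.18 (95% interval -0.46 to 0.37, limma, adjusted p = 0.867). SKP2, the F-box protein that directs p27 to degradation, was not called either (log2 fold change -0.01 ± 0.17, adjusted p = 0.956).

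The CIP/KIP genes summed to 93.1, 217 and 155 FPKM in floating spheres, against 111, 84.5 and 109 FPKM in sphere-differentiated cells, and these sums overlapped. CDKN1A held 61.5 ± 11.3% of the sum in floating spheres, compared with 53.6 ± 2.86% in sphere-differentiated cells. CDKN1B held 25.9 ± 9.25% in floating spheres, compared with 37.0 ± 2.45% in sphere-differentiated cells.

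**Figure D3:**
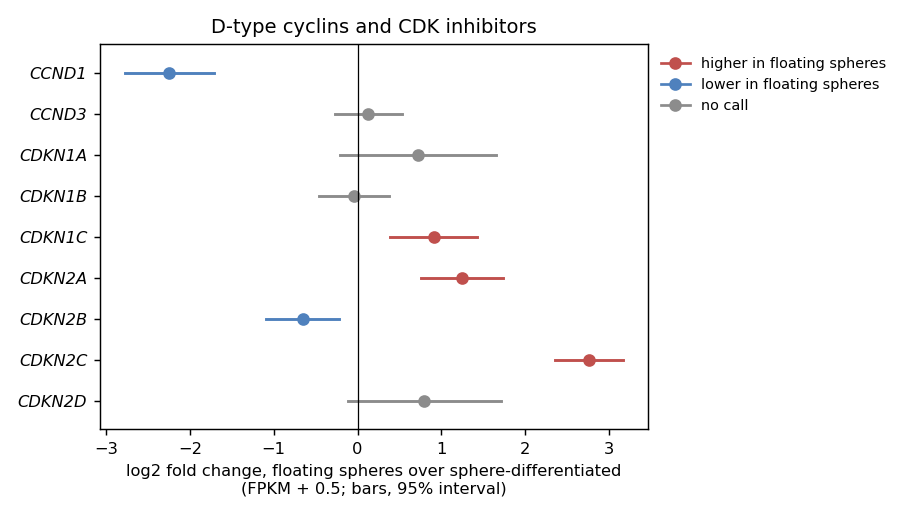
Log2 fold change, floating spheres over sphere-differentiated cells, of the 9 genes tested, with 95% intervals from limma as bars and colours by call. The intervals of CDKN2C (2.36 to 3.17), CDKN2A (0.75 to 1.73) and CDKN1C (0.39 to 1.43) lie above 0 and those of CCND1 (-2.78 to -1.71) and CDKN2B (-1.09 to -0.22) below it.

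Ranked by mean level within floating spheres, the order was CDKN1A (99.8 ± 57.0 FPKM), CDKN2A (67.8 ± 18.7), CDKN2C (39.9 ± 5.26), CDKN1B (36.6 ± 7.86), CDKN2D (35.3 ± 19.7), CDKN1C (18.7 ± 4.96), CCND3 (13.5 ± 1.51), CDKN2B (7.81 ± 1.78) and CCND1 (5.43 ± 1.74). Only the steps CDKN2A to CDKN2C and CCND3 to CDKN2B separated neighbours whose libraries did not overlap. In sphere-differentiated cells the order was CDKN1A (54.6 ± 10.4 FPKM), CDKN1B (37.3 ± 3.22), CDKN2A (27.8 ± 3.50), CCND1 (26.7 ± 0.277), CDKN2D (18.2 ± 3.28), CDKN2B (12.4 ± 1.36), CCND3 (12.4 ± 2.23), CDKN1C (9.51 ± 1.29) and CDKN2C (5.48 ± 1.07). There the neighbours that overlapped were CDKN2A with CCND1, CDKN2B with CCND3 and CCND3 with CDKN1C. CCND1 thus stood last of the 9 in floating spheres but next to CDKN2A in sphere-differentiated cells, and CDKN2C stood next to CDKN2A in floating spheres but last of the 9 in sphere-differentiated cells. Both orders are per merged exon length only.

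Among the kinase partners, CDK6 moved in the direction of CCND1. It measured 0.545, 0.585 and 0.667 FPKM in floating spheres, against 4.21, 4.84 and 4.48 FPKM in sphere-differentiated cells. The groups were well apart (log2 fold change -2.19 ± 0.15, limma, adjusted p = 0.000383). CDK4, the more abundant partner, measured 50.9, 33.6 and 35.6 FPKM in floating spheres and 33.2, 29.6 and 30.5 FPKM in sphere-differentiated cells. Its groups did not overlap, but the difference did not pass the test (log2 fold change 0.34 ± 0.18, limma, adjusted p = 0.187). CDK2, the main kinase target of the CIP/KIP inhibitors, also missed it (0.36 ± 0.13, adjusted p = 0.0598).

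Of the 14 kinases and kinase regulators listed, all tested, 1 was higher and 3 were lower in floating spheres (median log2 fold change 0.08). The called share was 28.6%, below the 33.6% of all genes tested. Besides CDK6, the lower genes were CCNH (-0.89) and CDK7 (-0.60), subunits of the CDK-activating kinase, and the higher gene was CDC25C (0.78), a phosphatase that activates CDK1. Of the 8 later cyclins, 6 were tested, 2 were higher and none was lower (33.3% called, beside 33.6% of all genes tested, median 0.41). These were CCNF (1.19 ± 0.14, limma, adjusted p = 0.00178) and the CDK2 partner CCNE2 (0.89 ± 0.21, adjusted p = 0.0170). CCNE1, its paralogue, did not pass the test (0.16 ± 0.14, adjusted p = 0.405). CCNE2 lost its call without sphere-differentiated replicate 1 or 3, and CDK7 without floating sphere replicate 3 or any sphere-differentiated library, while 2 kinases or regulators were higher without floating sphere replicate 2.

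The RB and E2F families were divided. Of 13 genes, all tested, 4 were higher and 4 lower, and their median log2 fold change was -0.13. That is 61.5% called, beside 33.6% of all genes tested. RB1 itself did not pass the test (0.13 ± 0.17, limma, adjusted p = 0.600). Its relatives were called in opposite directions. RBL1, which encodes p107, measured 6.35 ± 1.10 FPKM in floating spheres and 14.0 ± 1.73 FPKM in sphere-differentiated cells (log2 fold change -1.08, adjusted p = 0.00401). RBL2, which encodes the quiescence-associated p130, measured 15.9 ± 2.18 FPKM in floating spheres and 9.61 ± 1.08 FPKM in sphere-differentiated cells (0.70, adjusted p = 0.0126). E2F1, an activating E2F, was higher in floating spheres (0.75, adjusted p = 0.01004), as were the repressor E2F7 (0.97, adjusted p = 0.0149) and E2F8. The activating E2F2 and E2F3 were called lower, as was the E2F partner TFDP2. E2F2 averaged 6.22 FPKM in floating spheres and 8.81 FPKM in sphere-differentiated cells, and E2F3 8.98 and 14.4 FPKM. TFDP2 averaged 9.72 FPKM in floating spheres and 15.7 FPKM in sphere-differentiated cells. The count of higher genes was 1 without sphere-differentiated replicate 1 and 0 without replicate 3, and that of lower genes was 1 without floating sphere replicate 2 or any sphere-differentiated library. RBL1 was called in each of these fits.

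**Figure D4:**
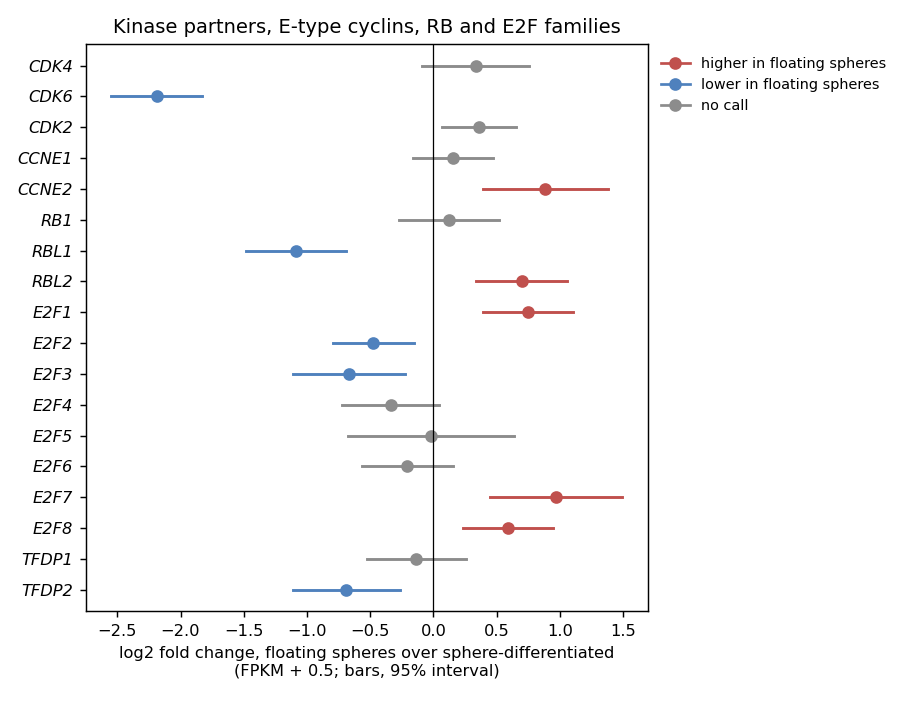
Log2 fold change, floating spheres over sphere-differentiated cells, of the kinase partners, the E-type cyclins and the RB and E2F families, with 95% intervals from limma as bars and colours by call. CDK6 lies farthest from 0, at -2.19, and RBL1 (-1.08) and RBL2 (0.70) lie on opposite sides.

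E2F factors are known to transcribe genes of DNA synthesis. Of 18 listed, all tested, 3 were higher in floating spheres (16.7%, near the 15.8% of all genes tested). None was lower, beside 17.8% of all genes tested (median log2 fold change 0.08). The share called in either direction, 16.7%, thus lay below the 33.6% of all genes tested. The largest change of the 3 was that of RRM2, a subunit of ribonucleotide reductase, at 49.1 ± 6.88 FPKM in floating spheres and 15.0 ± 2.63 FPKM in sphere-differentiated cells (1.68, limma, adjusted p = 0.00120). TYMS (0.47, adjusted p = 0.0427) and the helicase subunit MCM5 (0.60, adjusted p = 0.0494) passed by a small margin. The count fell to 1 without the expression filter, on the TPM scale, with a replicate block and without any 1 of the sphere-differentiated libraries.

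Genes for turnover of cyclin D and the CIP/KIP proteins were also mixed, with 2 of 15 higher and 2 lower (median 0.06). Their called share of 26.7% lay below the 33.6% of all genes tested. RBX1, the RING subunit of cullin ligases, was higher (0.93, limma, adjusted p = 0.00267). So was FBXO4, an F-box protein reported to act on cyclin D1 (0.91, adjusted p = 0.00378). GSK3B, a kinase that marks cyclin D1 for export and degradation, was lower (-0.67, adjusted p = 0.0143), as was the scaffold CUL4A (-0.74, adjusted p = 0.0373). The lower count was 1 without floating sphere replicate 3 or sphere-differentiated replicate 1, and 0 without sphere-differentiated replicate 2 or 3. Protein levels were not measured in these data.

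Of 16 known regulators of transcription at these genes, 15 were tested, 2 were higher and 2 lower, with a median of -0.01. Called genes made up 26.7%, below the 33.6% of all genes tested. FOXO1, an activator of CDKN1B, was lower in floating spheres (-1.21 ± 0.17, limma, adjusted p = 0.00280). Of the 5 Polycomb genes listed, which belong to complexes known to silence the CDKN2A locus, EZH2 was higher (0.92, adjusted p = 0.0160) and BMI1 lower (-0.57, adjusted p = 0.0153), while CBX7, EED and SUZ12 were not called. SMAD3, a mediator of TGF-beta signals, was higher (0.97, adjusted p = 0.0242). MYC did not pass the test (-0.74 ± 0.33, adjusted p = 0.124). The higher count was 4 without floating sphere replicate 1, 1 without replicate 3 and 0 without any sphere-differentiated library, and the lower count was 1 without sphere-differentiated replicate 2 or 3.

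The level of CDKN2A also bears on the identity of the line. SKOV3 is commonly recorded as carrying a homozygous deletion of CDKN2A and amplified ERBB2. In these libraries CDKN2A had 6476, 3880 and 4351 fragments in floating spheres and 2173, 1546 and 1913 fragments in sphere-differentiated cells, and its mean level exceeded that of 94.7% of all genes tested. The data therefore do not show the loss of CDKN2A transcript that a homozygous deletion would give, and the cells are called SKOV3 here by their label.

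The neighbour MTAP, often deleted together with CDKN2A, was also expressed, with 3.28, 3.62 and 3.23 FPKM in floating spheres and 5.18, 5.51 and 5.28 FPKM in sphere-differentiated cells (log2 fold change -0.59 ± 0.13, limma, adjusted p = 0.0113). Of the 14 neighbours listed at 9p21, 4 were tested, none was higher and MTAP was the 1 called lower (median -0.29). That share of 25% compares with 33.6% called over all genes tested. The MTAP call was lost without sphere-differentiated replicate 3 (adjusted p = 0.0641). CDKN2A was thus higher in floating spheres while MTAP on one side and CDKN2B on the other were lower.

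**Figure D5:**
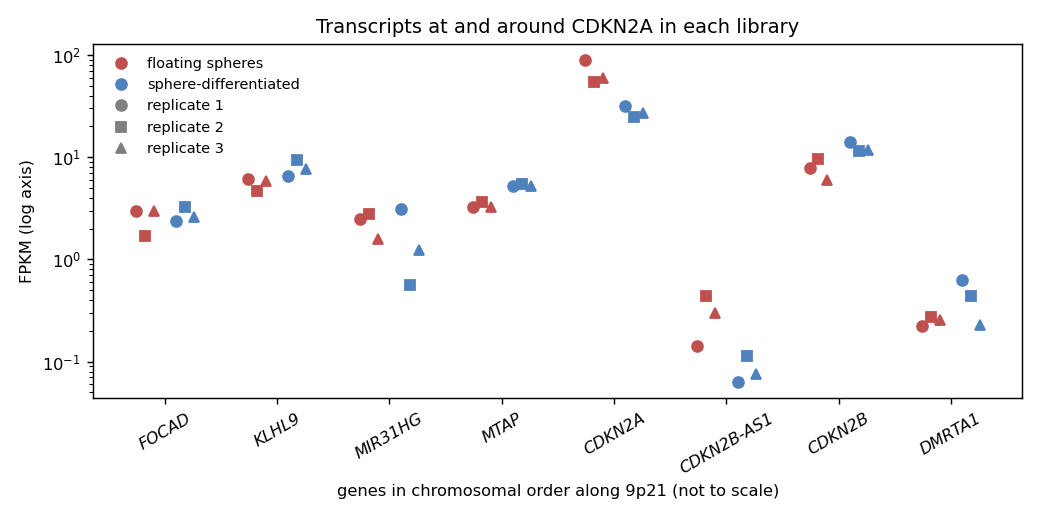
FPKM of genes around CDKN2A in each library, on a log axis, in chromosomal order and not to scale, with floating spheres to the left of sphere-differentiated cells for each gene. CDKN2A (24.9 to 89.3 FPKM over the 6 libraries) stands above its neighbours, and MTAP and CDKN2B lie between 3.23 and 14.0 FPKM.

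ERBB2 measured 9.47, 6.56 and 9.12 FPKM in floating spheres and 10.2, 8.01 and 9.95 FPKM in sphere-differentiated cells. Its mean was above that of 65.8% of genes tested, so its FPKM did not stand out, although the line is recorded as amplified for it. That rank rests on a merged exon length of 10321 bases and compares genes per length only. Copy number was not measured in these data. Epithelial keratins were abundant, with KRT8 at 53.5 ± 20.3 FPKM in floating spheres and 61.3 ± 4.34 FPKM in sphere-differentiated cells. PAX8 was low (1.69 to 3.40 FPKM over the 6 libraries), the mesenchymal filament gene VIM was at 0.183 FPKM or less, MUC16 and ESR1 were at 0.0499 FPKM or less, and WT1 and SOX17 were listed at 0 in every library. Within this list of 14 ovarian and SKOV3 markers, 9 were tested and 55.6% of those were called, beside 33.6% of all genes tested. MSLN was the 1 higher in floating spheres (0.79). The 4 lower were EPCAM (-2.36), KRT7 (-2.19), KRT18 (-1.07) and MTAP, and the median over those tested was -0.26. The MSLN call was lost without floating sphere replicate 3 or sphere-differentiated replicate 2 or 3, and 2 markers were higher without floating sphere replicate 2.

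Of 17 markers of other cell types (fibroblast, blood, endothelial and mesothelial), 14 stayed below 1 FPKM in every library, and PTPRC, CDH5 and HBB were at 0 in all. Their summed level was 9.37 to 13.6 FPKM in floating spheres and 5.60 to 6.09 FPKM in sphere-differentiated cells. Of the 3 that were tested, 2 were called, both higher in floating spheres (66.7%, beside 33.6% of all genes tested). The fibroblast marker COL3A1 measured 2.57 ± 0.489 FPKM in floating spheres, against 1.18 ± 0.105 FPKM in sphere-differentiated cells. The endothelial marker PECAM1 measured 5.88 ± 1.41 FPKM in floating spheres, against 2.68 ± 0.384 FPKM in sphere-differentiated cells. Of the other endothelial markers listed, VWF was at 0.0590 FPKM or less and CDH5 at 0 in every library. DCN, another fibroblast marker, averaged 0.142 FPKM in floating spheres and was listed at 0 in sphere-differentiated cells. The other fibroblast markers listed did not follow. COL1A1 was not called, with overlapping groups, and COL1A2 and LUM were at 0.0198 FPKM or less in every library. The part of other cell types in the cyclin and inhibitor values was not tested.

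The genes whose pattern over the 6 libraries was most like that of CDKN2C, among 7256 protein-coding genes averaging at least 5 FPKM, were MARCKS, CDC42EP4 and WDR13, with Pearson r of 0.999, 0.999 and 0.998 on the log2 scale. MARCKS measured 24.9, 23.8 and 23.0 FPKM in floating spheres, against 14.4, 12.9 and 13.7 FPKM in sphere-differentiated cells, a much smaller difference than that of CDKN2C. For CCND1 the closest were AREG, RND3 and TNFAIP1 (r = 0.997, 0.997 and 0.996). AREG, an EGF receptor ligand, measured 19.4, 18.0 and 11.1 FPKM in floating spheres, against 73.1, 68.3 and 71.7 FPKM in sphere-differentiated cells. These likenesses are a description over 6 libraries that share the same group difference.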

How the data were processed

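RNA from 3 floating sphere and 3 sphere-differentiated SKOV3 libraries was sequenced, and the deposited FPKM values, which the authors made from gene counts, were used as deposited. Per the labels, hg38, featureCounts 1.5.0-p3 and DESeq2 1.20.0 appear in the submitters' processing notes, without roles. Neither the aligner nor a strand setting is given in the sources used here. Multiplied by the exon length of GENCODE release 29, the FPKM values gave whole fragments (within 0.01) for 100% of values above 0 of the 56923 entries with a length, at 14725462 to 16376331 fragments per library, which limits precision for low genes. Groups were taken from the labels, whose titles read Stem cells (here floating spheres) and Adherent cells (here sphere-differentiated cells), the names used here following the growth protocol field of the labels, and 0 columns were left unmapped.

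The study's methods name a count-based test, but the table holds FPKM, so limma 3.58.1 (R 4.3.3) with an intensity trend was fitted to log2(FPKM + 0.5) of genes averaging at least 0.5 FPKM, with Benjamini-Hochberg adjustment over all 15719 genes and a threshold of 0.05. The fit was tested on simulated data. All 10 genes are named with their values, together with direct partners and up to 4 called genes with the smallest adjusted p from each list reported, and the 3 genes most alike in pattern to the largest called change in each direction. For the RB and E2F families all called genes are named. Members and lists were chosen with earlier results of these data known. Alternatives were other pseudocounts (0.1 and 1), filters (none, and a mean of at least 5 FPKM), TPM, median-of-ratios and quantile scaling, no intensity trend, voom on the recovered fragments, a replicate block, each library left out, and a GC and length correction. 1 of the lists and some genes of the others are not reported here. Promoter windows are from RefSeq (GRCh38.p14). Figures were drawn with matplotlib 3.10.9.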

Additional observations from a re-analysis of the deposited data

How the results depend on the processing

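CCND1 (-2.42 to -1.98), CDKN2A (1.03 to 1.38) and CDKN2C (2.57 to 2.90) kept their direction and their call in all 17 alternatives. Not all of these could change a direction. The filters, the fit without intensity trend and the replicate block leave the fold change as it was. Median-of-ratios scaling nearly repeated the main fit, its factors being 1.009 in every library. With libraries left out in turn, the log2 fold change ranged from -0.00719 to 0.25 for CCND3, from 0.29 to 1.14 for CDKN1A, from -0.21 to 0.0704 for CDKN1B, from 0.77 to 1.14 for CDKN1C, from -0.80 to -0.49 for CDKN2B and from 0.39 to 1.23 for CDKN2D. The sign of CCND3 turned without sphere-differentiated replicate 2, and that of CDKN1B without floating sphere replicate 1 or 2 or sphere-differentiated replicate 1. CDKN2B was no longer called without the filter (-0.65, limma, adjusted p = 0.0663), with a replicate block (-0.65, adjusted p = 0.0509), or with a GC and length correction chosen after seeing the data (-0.48, adjusted p = 0.110), which leaves 1 gene lower in each of these. That correction turned CDKN1B to 0.0162. Genes called as higher ranged from 2 to 5 and as lower from 1 to 2 with libraries left out. The replicate block changed no other call among the 9 genes. Libraries with the same number did not deviate together (r = -0.02, -0.07 and -0.04). This gives no sign of pairing by number but cannot exclude it. Over all genes, 5279 were called, and 4088 with the replicate block. With a mean of at least 5 FPKM, 3402 were called of the 7766 genes then tested. With libraries left out, 2766 to 5303 were called, lowest without sphere-differentiated replicate 3 and 3032 without replicate 2. The causes were not tested. Of 340 counts of all the lists under alternatives, 286 stayed within 1.5 times. With a mean of at least 5 FPKM, 1 kinase list gene was lower, 1 later cyclin higher and 1 regulator lower. In the same fit 0 genes at 9p21 were lower, 2 ovarian markers lower and 0 markers of other cell types higher. CDK6, CCNH, CCNE2, FOXO1, MTAP, EPCAM, COL3A1 and PECAM1 average under 5 FPKM and were not tested there. These counts fell for that reason. Without the filter, 1 gene each was lower among RB and E2F genes and turnover genes and 1 higher among E2F targets and regulators. On the TPM scale, 1 E2F target was higher and 1 lower, and 2 genes at 9p21 were lower. Kinase list genes called higher numbered 2 with quantile normalisation, without the intensity trend, with voom and with the GC and length correction. Without the intensity trend, 1 E2F target was higher and 1 turnover gene lower, and with voom 1 E2F target was lower. With the replicate block, 2 RB and E2F genes were lower, 1 E2F target higher, 1 turnover gene lower and 0 ovarian markers higher. With the GC and length correction, 1 turnover gene and 0 genes at 9p21 were lower. With libraries left out, higher counts ranged from 1 to 2 in the kinase list, 1 to 3 in later cyclins and E2F targets, 0 to 4 in RB and E2F genes and in regulators, and 0 to 2 in ovarian markers, and lower counts from 1 to 4 in RB and E2F genes, 0 to 2 in turnover genes, 1 to 3 in regulators and 0 to 1 at 9p21. Depth limits CCND2, at 5 fragments or fewer in every library. GC content correlated with the deviation of sphere-differentiated replicates 1 (0.354) and 2 (-0.384) from their group.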
